A study of Rattus with 6 samples.

Results

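The CEP genes encode proteins of the centrosome, the body that organises the microtubules of an animal cell. They were taken here as the rows of the deposited read-count table that are annotated as protein coding and whose symbol is Cep followed by a digit. The rule gave 36 genes of 20742 listed. It left out Cep128 and Cep192, which the table annotates as miscellaneous RNA, and Cep83os, a long noncoding RNA. The cells were H9C2, a myoblast line from embryonic rat heart. In 3 libraries they carried a control plasmid and in 3 a plasmid for RBM25 overexpression; RBM25 is an RNA-binding protein that takes part in the choice of splice sites. Poly(A) RNA was sequenced, and the design asked which genes change when RBM25 is raised. The promoter on the plasmid, the time after its delivery and whether the cells were a clone were not stated in the sources used here.

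A centrosome is built around a pair of centrioles, cylinders of microtubules that are copied during each cell cycle. New centrioles start on a scaffold at the wall of the old ones, grow to a set length, mature by gaining appendages, and are held together by a fibrous linker until mitosis. In a cell that stops dividing the mother centriole can become the base of a primary cilium, and in muscle precursors that fuse and differentiate much of the centrosome's microtubule organising role moves to the nuclear envelope. The roles given for single genes below are known mainly from human cells and mice.

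Libraries held 25543849 to 33130256 counted reads, and 12882 genes had enough reads to be tested. Rbm25 was at 49.2, 44.5 and 45.7 CPM in control replicates 1, 2 and 3 and 56.3, 55.9 and 60.1 CPM in RBM25 replicates 1, 2 and 3 (log2 fold change 0.30, SE 0.047, adjusted p = 0.00110 by edgeR). No RBM25 library overlapped the controls for it, and an exact two-sided permutation test of its log2 CPM gave p = 0.1, the smallest that 3 libraries against 3 allow. CPM are read counts scaled to a common library size. The near copy Rbm25l1 had 1 to 3 reads in the control libraries and 105 to 147 in the RBM25 libraries, and how reads were split between the 2 genes is uncertain. Of the myoblast and muscle markers, Casq2 (329 CPM in controls), Tnnt2 (106), Myod1 (60.4), Mef2c (42.2) and Myog (21.4) were the highest. Nkx2-5 (15.3), Gata4 (11.6), Acta1 (9.41) and Des (9.25) were lower, and Actc1 was at 0.776 CPM. The rest were nearly absent, Myh7, Tnni3 and Ryr2 having 0 to 3 reads a library and Myh6 4 to 16. Of the markers of other cell types, the 3 epithelial ones had 0 to 2 reads a library and the 4 of multiciliated cells that are listed had 0 to 7. The 4 endothelial ones had 0 to 11, the macrophage marker Cd68 had 7 to 19 and the T cell marker Cd3e 141 to 188. Fibroblast collagens were high (Col1a1 at 13006 ± 707 and 12750.1 ± 405 CPM in control and RBM25 libraries). Thy1, of the same list, was at 535 and 530 CPM, and Pdgfra had 0 to 2 reads. The fibroblast marker Dcn and the leukocyte markers Ptprc and Adgre1 matched no row.

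All 36 CEP genes were expressed at a level that allowed a test, and their summed level differed between groups by less than the spread of the libraries. The sum was 711, 689.9 and 700.1 CPM in the control libraries and 722, 704 and 697 CPM in the RBM25 libraries, so the groups overlapped. CEP reads were 0.0687 to 0.0719% of all counted reads. In bulk RNA fewer cells of a kind and less RNA per cell cannot be told apart, so a level below is an average over the culture.

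None of the 36 CEP genes was called changed by edgeR's quasi-likelihood test at an adjusted p under 0.05, a threshold that 0.404% of all tested genes passed (0.357% higher with RBM25). At an unadjusted p under 0.05 there were 5, of which 4 were higher with RBM25 and 1 lower. Over all tested genes 11.2% reached that level, 6.4% on the higher side and 4.78% on the lower, so 5 of 36 is near the background. DESeq2 called 0 CEP genes, against 0.435% of all genes, with 1 at an unadjusted p under 0.05, against 7.09%. Limma-trend on log2(FPKM + 0.1) called 0, against 0.0155% of all genes, with 3 at an unadjusted p under 0.05, against 9.6%. On log2(FPKM + 1) it called 0, against 0.00776%, with 3, against 9.56%. Of the fitted log2 fold changes (RBM25 over control) 21 were positive and 15 negative, against 48.8% positive over all tested genes. The median was 0.0088 for the CEP genes and -0.0021 for all genes. The groups did not overlap in CPM for 3 CEP genes, Cep43 and Cep83 being above the controls in every RBM25 library and Cep170b below, while 16.2% of all tested genes had no overlap (8.31% above and 7.94% below).

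For most of the family the spread of 3 libraries a group, which can be technical, was small enough to bound a change. The 95% interval of the fold change lay between a 1.2-fold rise and a 1.2-fold fall for 22 of the 36 genes, and within 1.5-fold either way for 34. Outside that were Cep295nl (0.617 to 1.24) and Cep70 (0.470 to 1.08), which had 195 and 154 reads in all 6 libraries together. The standard error of the log2 fold change ran from 0.043 for Cep170b to 0.29 for Cep70. The plot of fitted changes shows the narrow intervals of abundant members beside the wide ones of rare members.

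**Figure D1:**
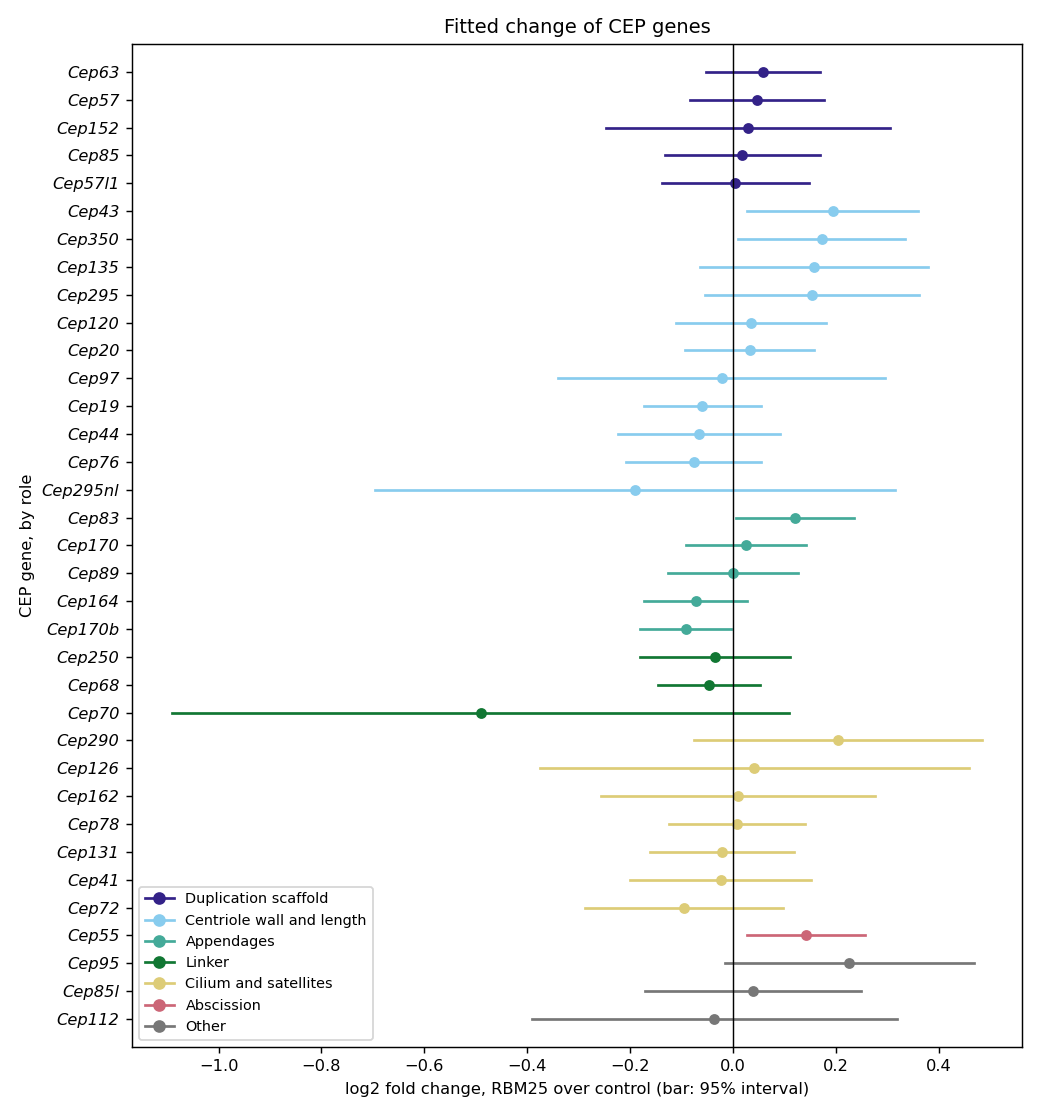
Fitted log2 fold change of 35 CEP genes (RBM25 over control, 3 libraries a group), with its 95% interval from the edgeR fit, grouped by role in the centrosome. Most intervals cover 0; those of Cep43, Cep350, Cep83 and Cep55 lie just above it and that of Cep170b just below, and none of these passed adjustment over all genes.

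Per length, the family spanned a 230-fold range of levels. Levels between genes are compared here in FPKM, reads per kilobase of transcript scaled to library size, as deposited and rounded to 2 decimals. Cep20 was highest at 25.3 FPKM (mean of 6 libraries), then Cep55 at 16.0 and Cep19 at 14.9. The lowest were Cep295nl at 0.11, Cep126 at 0.130 and Cep70 at 0.220 FPKM. A mean of at least 5 FPKM was seen for 8 genes, 1 to 5 for 18 and under 1 for 10. The family's median was 2.84 FPKM, below the 5.43 FPKM of all tested genes, and 7 CEP genes were above that value.

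Most neighbours in the order of levels overlapped. Of the 35 pairs of neighbours in the order, 9 had ranges over the 6 libraries that did not overlap. Clear steps lay between Cep20 and Cep55, between Cep19 and Cep83 and between Cep170b and Cep78. From Cep78 (5.45 FPKM) down to Cep72 (2.67), 15 genes followed each other with overlapping ranges, so neighbours there do not differ beyond their spread. Among the lowest genes, Cep112, Cep70, Cep126 and Cep295nl overlapped from each to the next. Further steps came below Cep72, Cep120, Cep95, Cep350, Cep152 and Cep290. The plot of levels by library shows these steps.

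**Figure D2:**
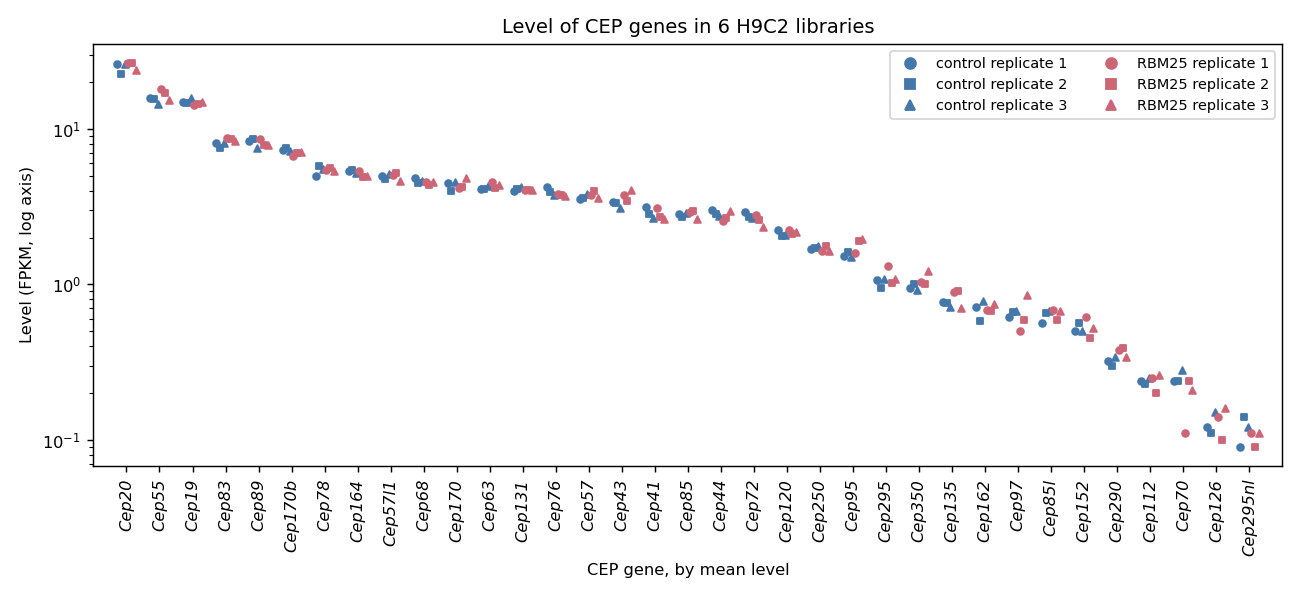
Level of 35 CEP genes (FPKM, log axis) in 3 control and 3 RBM25 libraries, ordered by the mean of all 6. Cep20 is highest at 25.3 FPKM and Cep295nl lowest at 0.11, and control and RBM25 points lie over each other for nearly every gene.

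The scaffold on which new centrioles start was represented by 5 genes, and none was called. Cep152, which binds the duplication kinase PLK4, was the rarest at 0.525 FPKM, and its partner Cep63 was at 4.27 FPKM. Cep57 and its paralogue Cep57l1, which keep paired centrioles engaged, were at 3.71 and 4.96 FPKM, and Cep85, a partner of the cartwheel factor STIL, at 2.82. Cep57l1, the most abundant of these, was at 17.5, 16.8 and 17.9 CPM in the control libraries and 17.9, 18.3 and 16.2 CPM in the RBM25 libraries. The groups overlapped fully for it (log2 fold change 0.0046, SE 0.070, adjusted p = 0.990 by edgeR). The 5 log2 fold changes ran from 0.0046 to 0.058, all positive and none at an unadjusted p under 0.05.

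Cep192, the scaffold protein that brings PLK4 and γ-tubulin to the centrosome, stood outside the rule because of its annotation. It was more abundant in reads than most of the family, with 1516, 1659 and 1866 reads in the control libraries and 1970, 1894 and 1745 reads in the RBM25 libraries. The groups overlapped in CPM (log2 fold change 0.034, SE 0.040, adjusted p = 0.805 by edgeR). Cep128, a protein of the subdistal appendages with the same annotation, had 406, 436 and 495 reads in the control libraries and 551, 526 and 386 reads in the RBM25 libraries (log2 fold change 0.0041, SE 0.077, adjusted p = 0.992 by edgeR). Neither gene was called.

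The largest group, 11 genes of the centriole's wall and length, gave 6 positive and 5 negative values. Cep43 and Cep350 were among the 5 CEP genes at an unadjusted p under 0.05. Cep43, also known as FOP, which works with Cep350 and Cep19 at the mother centriole, was at 11.9, 11.9 and 10.9 CPM in control replicates 1, 2 and 3 and 13.4, 12.2 and 14.2 CPM in RBM25 replicates 1, 2 and 3. Each RBM25 library was above each control library, by a small margin between control replicate 1 and RBM25 replicate 2. The log2 fold change was 0.19 ± 0.081 (SE; interval of the fold change 1.02 to 1.28), with an unadjusted p of 0.0245 and an edgeR adjusted p of 0.348.

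Cep350, the large protein that recruits Cep43, gave a similar value on a different pattern of libraries. It was at 13.7, 14.7 and 13.3 CPM in the control libraries and 15.1, 14.5 and 17.5 CPM in the RBM25 libraries. RBM25 replicate 3 was the highest of the 6, and RBM25 replicate 2 was below control replicate 2, so the groups overlapped (log2 fold change 0.17, SE 0.079, adjusted p = 0.403 by edgeR). Cep19, the third of this set, went the other way in sign at 28.7, 28.1 and 30.5 CPM in the control libraries and 27.6, 27.9 and 28.4 CPM in the RBM25 libraries (log2 fold change -0.060, SE 0.055, adjusted p = 0.742 by edgeR), with all RBM25 libraries inside or below the range of controls. Cep19 overlaps Pigx in the reference table.

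Cep135, a protein of the cartwheel and centriole wall whose mutation causes microcephaly in people, was at 7.22, 7.21 and 6.69 CPM in the control libraries and 8.43, 8.50 and 6.51 CPM in the RBM25 libraries. RBM25 replicates 1 and 2 were above every control and replicate 3 was below every control (log2 fold change 0.16, SE 0.11, adjusted p = 0.622 by edgeR). Cep295, which lets a new centriole become a centrosome, was at 9.07, 8.08 and 9.15 CPM in the control libraries and 11.3, 8.69 and 9.16 CPM in the RBM25 libraries. Here RBM25 replicate 1 was well above the controls, replicate 2 was among them and replicate 3 was level with the highest (log2 fold change 0.15, SE 0.10, adjusted p = 0.605 by edgeR). Cep43, Cep135 and Cep295 were thus each highest in a different RBM25 library.

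The most abundant CEP gene of all, Cep20, a small relative of Cep43 found at centrioles and satellites, was at 25.1 ± 2.04 FPKM with the control plasmid and 25.6 ± 1.54 FPKM with the RBM25 plasmid (SD, n = 3). In CPM its libraries were at 69.8, 60.2 and 69.1 CPM in the control libraries and 70.5, 70.2 and 62.5 CPM in the RBM25 libraries. Control replicate 2 and RBM25 replicate 3 were low and the other 4 were close together, so the groups overlapped (log2 fold change 0.032, SE 0.058, adjusted p = 0.888 by edgeR). Cep76, which restrains repeated copying of centrioles, was at 23.2, 21.5 and 20.5 CPM in the control libraries and 20.9, 20.6 and 20.2 CPM in the RBM25 libraries, and only control replicate 1 stood out (log2 fold change -0.076, SE 0.064, adjusted p = 0.704 by edgeR). Cep120, which promotes centriole elongation, and Cep44, of the centriole's inner wall, had log2 fold changes of 0.035 and -0.066.

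Cep97, the partner of the centriole cap protein CP110, varied more between RBM25 libraries than any other CEP gene except Cep70. It was at 4.55, 4.88 and 4.95 CPM in the control libraries and 3.70, 4.39 and 6.22 CPM in the RBM25 libraries. The 3 controls lay between RBM25 replicates 2 and 3, and the fitted change was near 0 (log2 fold change -0.022, SE 0.15, adjusted p = 0.975 by edgeR). Cep295nl, named for its likeness to one end of Cep295, had 24, 39 and 37 reads in the control libraries and 36, 28 and 31 reads in the RBM25 libraries. The reads are too few for a narrow interval (log2 fold change -0.19, SE 0.25, adjusted p = 0.823 by edgeR), and it overlaps Timp2 in the reference table.

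Of the 5 appendage genes, Cep83 was higher and Cep170b lower at an unadjusted p under 0.05, and none was called. Cep83, the distal appendage protein on which the others assemble, was at 27.1, 25.5 and 27.3 CPM in control replicates 1, 2 and 3 and 29.7, 29.2 and 28.0 CPM in RBM25 replicates 1, 2 and 3. All RBM25 libraries were above all controls, the gap between control replicate 3 and RBM25 replicate 3 being the smallest (log2 fold change 0.12, SE 0.056, adjusted p = 0.410 by edgeR). Cep83 had 691, 732 and 845 reads in the control libraries and 980, 923 and 783 reads in the RBM25 libraries. The noncoding Cep83os, on the same chromosome, had 37, 49 and 65 reads in the control libraries and 54, 74 and 57 reads in the RBM25 libraries.

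Cep170b, a paralogue of the subdistal appendage protein Cep170, was at 53.1, 55.0 and 52.5 CPM in the control libraries and 48.6, 50.9 and 51.2 CPM in the RBM25 libraries. The RBM25 libraries lay below the controls without overlap, with a log2 fold change of -0.092 ± 0.043 (SE; unadjusted p = 0.0431, edgeR adjusted p = 0.420). Cep170 itself, at 4.39 FPKM, had a log2 fold change of 0.025 ± 0.056 (SE). Cep164, the appendage protein that recruits the ciliary kinase TTBK2, was at 44.7, 45.6 and 43.2 CPM in the control libraries and 44.9, 41.0 and 40.9 CPM in the RBM25 libraries. RBM25 replicate 1 was within the controls and the other two RBM25 libraries were below them (log2 fold change -0.072, SE 0.049, adjusted p = 0.615 by edgeR). Cep89, also of the distal appendages, was at 8.16 FPKM with a log2 fold change of 0.00020. Of the 5 appendage genes 3 values were positive and 2 negative.

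**Figure D3:**
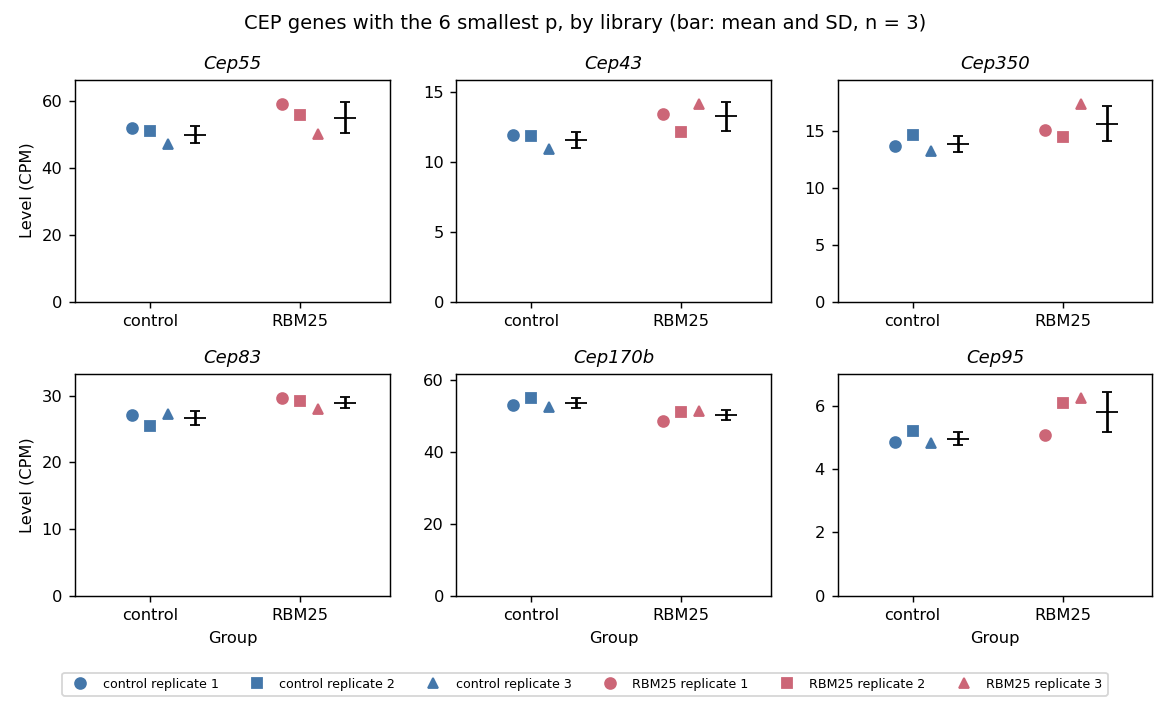
Level (CPM) by library of the 6 CEP genes with the smallest unadjusted p, with the mean and SD of 3 libraries beside the points. Cep43 and Cep83 are above the controls in all 3 RBM25 libraries and Cep170b is below in all 3, while RBM25 replicate 3 falls among the controls for Cep55.

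The 3 linker genes had negative values, none of them called. Cep68, a linker protein removed at mitosis, was at 42.9, 39.9 and 40.9 CPM in the control libraries and 40.7, 38.8 and 40.1 CPM in the RBM25 libraries (log2 fold change -0.047, SE 0.048, adjusted p = 0.773 by edgeR). Cep250, or C-Nap1, which anchors the linker to the centriole ends, was at 1.70 FPKM (log2 fold change -0.035, SE 0.071, adjusted p = 0.902 by edgeR). Cep70, a γ-tubulin binding protein grouped with them, had 24, 28 and 35 reads in the control libraries and 14, 30 and 23 reads in the RBM25 libraries. In CPM, RBM25 replicate 2 was among the controls and the other 2 RBM25 libraries were below them (log2 fold change -0.49, SE 0.29, adjusted p = 0.561 by edgeR).

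Genes of cilia and centriolar satellites, 8 in all, had 4 positive and 4 negative values, and none reached an unadjusted p under 0.05. Cep290, the transition zone protein mutated in Joubert syndrome and other ciliopathies, was rare, at 0.345 FPKM. Its libraries were at 3.42, 3.27 and 3.65 CPM in the control libraries and 4.15, 4.17 and 3.58 CPM in the RBM25 libraries. RBM25 replicates 1 and 2 were above the controls and replicate 3 was among them (log2 fold change 0.20, SE 0.14, adjusted p = 0.611 by edgeR). Cep78, the most abundant of the group, was at 20.3, 23.5 and 22.5 CPM in the control libraries and 22.2, 23.0 and 21.6 CPM in the RBM25 libraries, with the RBM25 libraries inside the range of the controls (log2 fold change 0.0081, SE 0.064, adjusted p = 0.978 by edgeR).

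The satellite proteins Cep131 and Cep72 were at 4.07 and 2.67 FPKM. Their log2 fold changes were -0.021 ± 0.068 and -0.095 ± 0.093 (SE). For Cep41, which is needed for tubulin glutamylation in cilia, the value was -0.024, and for Cep162, of the transition zone, 0.0095. Cep126 had 44, 46 and 67 reads in the control libraries and 65, 47 and 63 reads in the RBM25 libraries and a log2 fold change of 0.041 ± 0.20 (SE). The 95% interval of the fold change was 0.917 to 1.1 for Cep78 and 0.894 to 1.09 for Cep131.

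Cep55 had the smallest p of the family. The protein acts late, at the midbody, where it recruits the ESCRT machinery that cuts dividing cells apart, and its mRNA is known to peak in late cell cycle phases. Its level was 51.7, 51.0 and 47.0 CPM in control replicates 1, 2 and 3 and 59.1, 55.7 and 49.9 CPM in RBM25 replicates 1, 2 and 3. RBM25 replicates 1 and 2 were above every control, and replicate 3 was below control replicates 1 and 2. The log2 fold change was 0.14 ± 0.055 (SE; interval of the fold change 1.02 to 1.2), with an unadjusted p of 0.0174 and an edgeR adjusted p of 0.316; the exact two-sided permutation test of log2 CPM gave p = 0.3, where 0.1 is the smallest possible.

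Without RBM25 replicate 3, Cep55 was called higher, and was the 1 CEP gene called there. It then had a log2 fold change of 0.21 ± 0.047 (SE), with an adjusted p of 0.00481 in edgeR. That fit called 2.69% of all tested genes, and 1.5% on the higher side. In the 5 fits that left out another library the adjusted p of Cep55 was 0.305 to 0.676, and its log2 fold change over all 6 such fits was 0.088 to 0.21. With 1 of 36 called, the family was near that background. Cep55 was also the 1 CEP gene called in the fits with the replicate number as a block, which called 3.38% of all genes (2% higher), or 2.65% (1.52% higher) with length offsets.

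RBM25 replicate 3 was the lowest of the 6 libraries for 25 of 30 cell cycle genes and the highest for 1, Cenpe. The summed level of 30 cell cycle genes was 3308, 3102 and 3061 CPM in the control libraries and 3409.6, 3229 and 2831 CPM in the RBM25 libraries. Within each group its order over replicates was the order of Cep55. Myog, the transcription factor that starts muscle differentiation, was at 20.3, 21.2 and 22.8 CPM in the control libraries and 14.6, 14.9 and 25.6 CPM in the RBM25 libraries, and the troponin gene Tnnt2 at 112, 105 and 101 CPM in the control libraries and 94.1, 94.6 and 137 CPM in the RBM25 libraries, both highest in RBM25 replicate 3. The muscle list did not move as one there: of its 11 tested genes, 5 were highest in that library (Acta1, Actc1, Casq2, Myog and Tnnt2) and 1 was lowest (Myod1). Myod1, the myoblast transcription factor, was at 61.5, 58.9 and 60.9 CPM in the control libraries and 68.4, 61.6 and 54.6 CPM in the RBM25 libraries. Casq2, a calcium-binding protein of muscle, was at 334, 328 and 324 CPM in the control libraries and 353, 350.5 and 355 CPM in the RBM25 libraries, so its RBM25 libraries were close together. All were above its controls, as for 8.31% of all tested genes. Casq2 was not called (log2 fold change 0.10, SE 0.030, adjusted p = 0.137 by edgeR). The part of these genes in the Cep55 values was not tested.

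**Figure D4:**
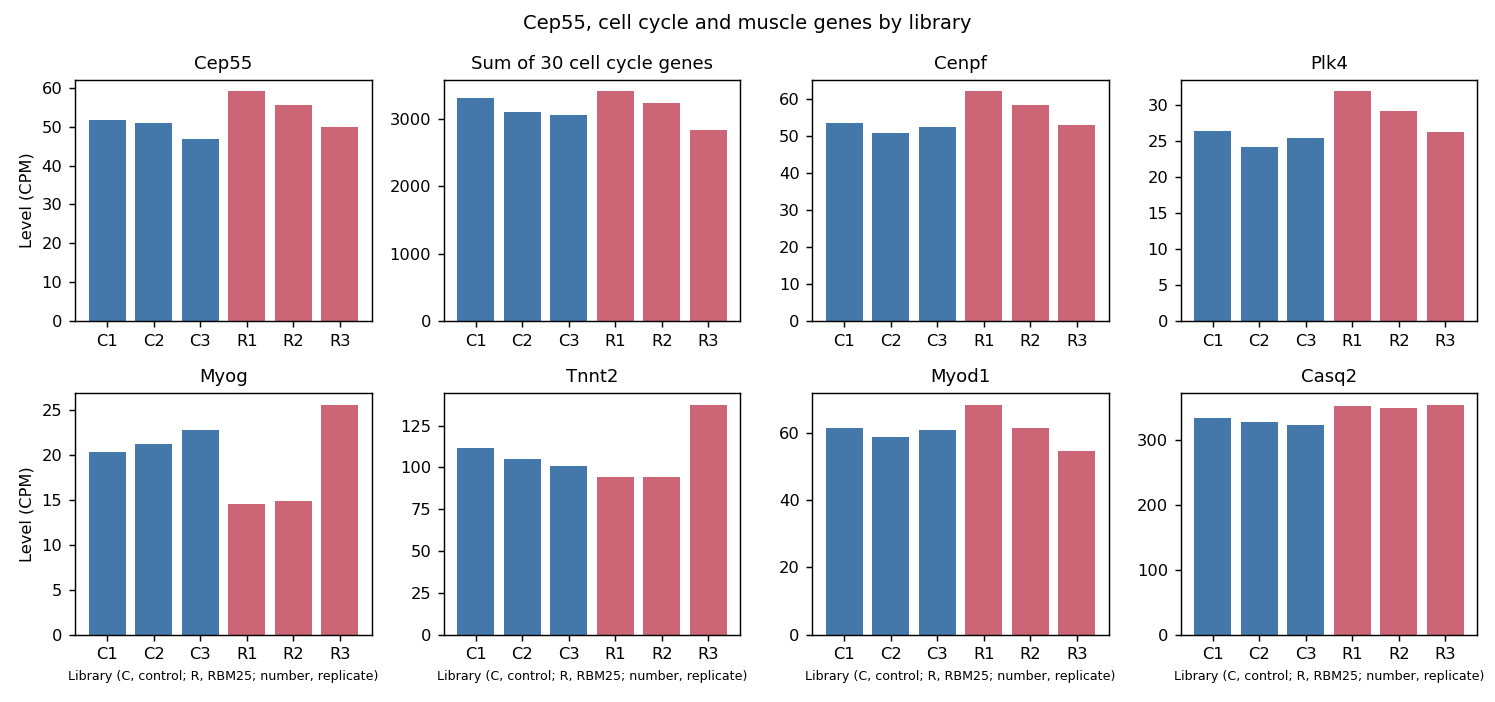
Level (CPM) of Cep55, of the sum of 30 cell cycle genes, of the cell cycle genes Cenpf and Plk4, and of the muscle genes Myog, Tnnt2, Myod1 and Casq2 in each library (C, control; R, RBM25). RBM25 replicate 3 has the lowest cell cycle sum, the highest Myog and Tnnt2 and the lowest Myod1. Casq2 differs little between the RBM25 libraries, which are all above its controls.

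After the values were seen, the level of each CEP gene was also expressed as a share of the summed level of the 30 cell cycle genes in the same library, since Cep55 and that sum had the same order within each group. Cep55 was 1.56, 1.64 and 1.53% in the control libraries and 1.73, 1.72 and 1.76% in the RBM25 libraries, so the groups no longer overlapped. The mean log2 difference was 0.14, against 0.14 in the edgeR fit. The rare ciliary gene Cep290 was 0.103, 0.106 and 0.119% in the control libraries and 0.122, 0.129 and 0.126% in the RBM25 libraries, also without overlap and with all RBM25 libraries higher. The satellite gene Cep72 was 0.299, 0.298 and 0.296% in the control libraries and 0.279, 0.275 and 0.278% in the RBM25 libraries, with all RBM25 libraries lower. Cep43, Cep83 and Cep170b, whose groups did not overlap in CPM, overlapped on this scale. Of the 36 CEP genes 3 had no overlap (8.33%), as had 6 of the 30 cell cycle genes themselves (20%) and 5.69% of all tested genes (4.04% above). These shares are a description, chosen after the data were examined, with no test. The sum was chosen because it shared the order of Cep55 within each group. The choice itself favours a smaller spread of Cep55, so its lost overlap is no support for a change.

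The other CEP genes did not share a common shift in RBM25 replicate 3. Set against the mean of RBM25 replicates 1 and 2, the log2 differences in replicate 3 ran from -0.35 for Cep135 and -0.21 for Cep72 to 0.31 for Cep126 and 0.57 for Cep97. A total of 5 CEP genes differed by more than 0.2, with 3 above and 2 below, and 16.5% of all tested genes did. The family's median difference was -0.015. Cep20, Cep85 and Cep57l1 were, like Cep55, lower in this library (-0.17, -0.16 and -0.15), and Cep170 and Cep350 higher (0.18 and 0.23); these are descriptions of 1 library, with no test.

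Of the 3 genes without a settled place in these groups, Cep95 had the highest log2 fold change of the family. It was at 4.87, 5.19 and 4.82 CPM in the control libraries and 5.09, 6.10 and 6.26 CPM in the RBM25 libraries. RBM25 replicates 2 and 3 were above the controls and replicate 1 was among them (log2 fold change 0.23, SE 0.12, adjusted p = 0.485 by edgeR). Cep95 overlaps Ddx5 in the reference table, an RNA helicase gene with about 102 FPKM against 1.68 FPKM, and Ddx5 itself was not called (log2 fold change 0.080, SE 0.033, adjusted p = 0.330 by edgeR). Whether reads of the pair were told apart by strand is not stated, so the values of Cep95 and of the other overlapping members are uncertain. Cep85l, at 0.637 FPKM, and Cep112, at 0.238, had log2 fold changes of 0.039 and -0.036.

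In the RefSeq table of assembly GRCr8, 19 members overlap another gene. For 11 of them that gene has no row in the count table. The other 8 overlap a gene that has one, and for 6 it is a gene with a proper name. Beside Cep19, Cep95 and Cep295nl these were Cep63 with Anapc13, Cep295 with Taf1d and Cep85l with Pln. Cep120 and Cep152 overlap uncharacterized genes. Timp2 was at 212 FPKM, against 0.11 FPKM for Cep295nl, so a small share of its reads would outnumber those of Cep295nl. None of these 6 neighbours had a log2 fold change beyond 0.21 (Pln; edgeR adjusted p = 0.701).

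The lengths implied by reads and FPKM were long. Reads divided by FPKM and by the library total give the length behind the deposited FPKM of each gene. How it was derived from a gene's transcripts is not stated, so it need not be the length of the transcripts in these cells. These lengths ran from 1919 nt for Cep19 to 14451 nt for Cep350. The median was 6287 nt for the CEP genes and 3599.6 nt for all tested genes, and 27 of the 36 were above the latter. For the 31 genes with at least 0.5 FPKM in a library, the libraries at or above that level (all 6, or 5 for Cep152) gave the same length to within 1.29% once a small factor per library (0.998 to 1.003) was taken out. For Cep70, Cep112, Cep126, Cep290 and Cep295nl the length was taken over all libraries together, because the rounding of FPKM is coarse there; for Cep295nl it allows 9533 to 10441 nt.

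CEP genes with a longer implied length had lower levels per length. Across the 36 genes, log2(FPKM + 0.1) and log10 length had a Spearman correlation of -0.60, against -0.43 across all tested genes, as a description. Length is a divisor of FPKM, so the measures share it, and genes are not independent replicates. All members over 10000 nt except Cep350 and Cep170 were under 1 FPKM: Cep290, Cep85l and Cep126.

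Fold changes were tied to length only weakly. Their Pearson correlation with log10 length was 0.10 across the CEP genes and 0.061 across all tested genes. The Spearman correlation was 0.091 and 0.106, so which set had the higher value depended on the measure. Over all tested genes the median log2 fold change was -0.014 for lengths of 2000 to 4000 nt and 0.030 for lengths of 10000 nt or more, with 61.1% of the latter positive. The 10 CEP genes of 2000 to 4000 nt had a median of 0.018, and the 8 of 8000 to 10000 nt had -0.035 where all genes of that length had 0.017. All 5 CEP genes over 10000 nt were positive, with a median of 0.041. With offsets that take the length trend out of each library, 4 of these 5 were positive, with a median of 0.013, and no CEP gene was called.

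**Figure D5:**
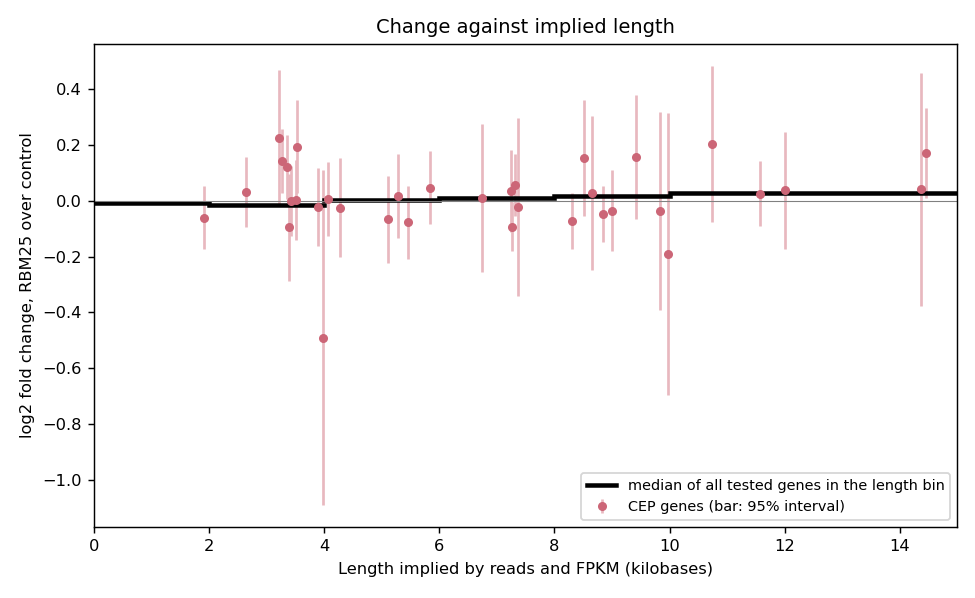
Log2 fold change (RBM25 over control) of 35 CEP genes, each with its 95% interval, against the length implied by reads and FPKM in kilobases. Black steps are medians of all tested genes in each length bin, the last of which has no upper end; they rise from -0.014 at 2 to 4 kilobases to 0.030 above 10, a slope far smaller than the intervals of single CEP genes.

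Centrosome genes outside the family gave no call either. Of 65 tested, edgeR and DESeq2 called 0. At an unadjusted p under 0.05, edgeR gave 12 of the 65, 9 higher and 3 lower. That is a larger share than the 11.2% of all tested genes. DESeq2 gave 7 of the 65, also a larger share than the 7.09% of all. Of the 65 fitted changes 63.1% were positive, against 48.8% over all tested genes. These differences in share were not tested. The median log2 fold change was 0.015. The smallest p belonged to Plk4, the kinase that starts centriole duplication, at 26.4, 24.2 and 25.5 CPM in the control libraries and 31.9, 29.1 and 26.2 CPM in the RBM25 libraries (log2 fold change 0.20, SE 0.065, adjusted p = 0.202 by edgeR), and to Fam29a, the table's symbol for the augmin subunit Haus6, at 18.4, 16.3 and 17.7 CPM in the control libraries and 20.7, 20.9 and 18.7 CPM in the RBM25 libraries (log2 fold change 0.21, SE 0.070, adjusted p = 0.213 by edgeR). For both genes RBM25 replicates 1 and 2 were above replicate 3. For Plk4 replicate 3 was among the controls. For Fam29a all RBM25 libraries were above all controls, as for 8.31% of all tested genes. Without RBM25 replicate 3 these 2 genes were called higher, in the fit that called 2.69% of all genes.

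Of 62 tested genes of the primary cilium, edgeR and DESeq2 called 0. At an unadjusted p under 0.05, edgeR gave 8 of the 62, 5 higher and 3 lower, against 11.2% of all tested genes. DESeq2 also gave 8 of the 62, against 7.09% of all. Ttc8, a subunit of the BBSome that carries membrane proteins into cilia, was at 10.05, 9.68 and 10.6 CPM in the control libraries and 8.25, 8.28 and 8.12 CPM in the RBM25 libraries (log2 fold change -0.30, SE 0.088, adjusted p = 0.132 by edgeR). The intraflagellar transport gene Ift74 was at 11.2, 11.6 and 12.03 CPM in the control libraries and 13.9, 13.4 and 14.1 CPM in the RBM25 libraries (log2 fold change 0.25, SE 0.076, adjusted p = 0.165 by edgeR). The groups did not overlap for either gene, as for 12 of the 62 (19.4%) and 16.2% of all tested genes. The list's median was 0.018.

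At an unadjusted p under 0.05, edgeR gave 4 of 30 cell cycle genes, 3 higher and 1 lower, against 11.2% of all tested genes. DESeq2 gave 4, against 7.09% of all. None of the 30 cell cycle genes was called by either. Their median log2 fold change was -0.0048, and Cenpf, a kinetochore protein gene with a late cell cycle peak, had the smallest p at 53.7, 50.8 and 52.3 CPM in the control libraries and 62.1, 58.3 and 52.9 CPM in the RBM25 libraries (log2 fold change 0.15, SE 0.049, adjusted p = 0.224 by edgeR). The mitotic motor Cenpe followed at 26.8, 24.6 and 24.7 CPM in the control libraries and 28.4, 27.4 and 28.7 CPM in the RBM25 libraries (log2 fold change 0.15, SE 0.057, adjusted p = 0.296 by edgeR). Without RBM25 replicate 3, 3 of the 30 genes were called higher, Cenpf, Ccna2 and Kif11, beside Cep55, Plk4 and Fam29a. That fit called 2.69% of all genes, 1.5% on the higher side. The library left out was the lowest of the 6 for 25 of the 30 genes, Ccna2 among them but not Cenpf or Kif11. It was the lowest RBM25 library for Cenpf, Cep55, Plk4 and Fam29a. These calls rest on a fit without it, so they are no separate evidence of a rise. Cep55, Cenpf and Plk4 had the same order over the RBM25 replicates, with replicate 1 highest and replicate 3 lowest.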

How the data were processed

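Per the labels' protocols, poly(A) RNA of 6 H9C2 samples was made into strand-marked libraries and sequenced as read pairs. The submitters' processing notes name HISAT2, DESeq2 and the build mRatBN7.2. They give no counting program, annotation or use of strand. Counts were deposited as unnormalized whole reads for each gene (20742 rows), and the deposited FPKM values are rounded to 2 decimals (20395 rows). The labels state no culture of origin or batch, and the p-values rest on the spread of 3 libraries a group, which can be technical.

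Counts were filtered with filterByExpr (minimum count 10), scaled by TMM and tested in edgeR 4.0.16 (R 4.3.3) with a robust quasi-likelihood fit on group, over all 12882 genes, with Benjamini-Hochberg adjustment. The SE is the log2 fold change divided by the square root of F. Intervals use its degrees of freedom. DESeq2 1.42.0 and limma 3.58.1 (log2(FPKM + 0.1) and log2(FPKM + 1)) were alternatives. The test was tried on simulated counts.

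Counts cover all 36 members; the values of 1 member are not reported here. The members and lists were chosen with earlier results of these data known. Values in every library are given for the 12 CEP genes with the smallest p, the 3 highest and 3 lowest by FPKM and the most abundant of each role group (19 genes). From the centrosome, ciliary and cell cycle lists they are given for the 2 genes with the smallest p. The same was planned for the marker lists, but Mef2c, Col1a1, Thy1 and Cd3e are not given by library. Cep97, Cep72, Myog, Tnnt2, Myod1 and Casq2 were added after their values were seen. Casq2 also had the smallest p of the muscle list. Of the list entries, 189 matched a symbol, 2 a synonym in the GRCr8 RefSeq table and 8 none. Promoter motifs were planned but not analysed here, with no sequence table at hand. No replicate pair of a group agreed within sampling noise (chi-square per degree of freedom 3.07 to 5.88).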

Additional observations from a re-analysis of the deposited data

How the results depend on the processing

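No CEP gene was called in 14 of the 17 fits, the main one included. The exceptions, with Cep55 called in each, were the fit without RBM25 replicate 3 and the 2 fits with a replicate block. The cause was not tested. With the replicate block edgeR called 436 genes in all (3.38%; 341, or 2.65%, with length offsets as well), 1 CEP gene under either (Cep55, log2 fold change 0.14, adjusted p = 0.0449; 0.15 and 0.0387 with length offsets), 2 other centrosome genes (1 with offsets), 2 ciliary genes (1 with offsets) and 2 cell cycle genes (0 with offsets). The labels do not state whether the numbers pair the libraries. Same-numbered libraries had correlations of deviations of 0.054, -0.067 and -0.0059, and not every library correlated best with its own number. With 3 libraries a group, these values show no pairing but cannot show that it was absent. The count over all genes was 52 in the main fit, 205 without a filter, 2 and 1 with limma-trend at pseudocounts of 0.1 and 1, and 5 (without control replicate 2) to 352 (without RBM25 replicate 3) in fits without 1 library. Those fits gave 0 to 1 called CEP genes, 0 to 2 other centrosome genes and 0 to 3 cell cycle genes, and a CEP median of -0.015 to 0.023. The Rbm25 log2 fold change was 0.30 and 0.28 with limma-trend, not past the threshold, and 0.27 to 0.35 without 1 library, where it missed the threshold without control replicate 2 (0.28, edgeR adjusted p = 0.0842).

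Of the 36 CEP genes, 21 had the same sign in every fit that gave a value, 11 positive and 10 negative. Sign changes under other settings concerned values near 0. Cep89 was -0.00068 with DESeq2, -0.0018 and -0.0017 with limma-trend and -0.0031 with the replicate block. With length offsets Cep162 was -0.0033 and Cep170 -0.00027, and Cep152 was -0.0011 with block and offsets. Without 1 library the sign changed for 15 genes, among them Cep112 -0.10 to 0.075, Cep126 -0.088 to 0.20, Cep131 -0.037 to 0.0010, Cep152 -0.11 to 0.14, Cep162 -0.10 to 0.11, Cep170 -0.035 to 0.062, Cep20 -0.032 to 0.085, Cep41 -0.10 to 0.038, Cep57l1 -0.026 to 0.053, Cep78 -0.043 to 0.054, Cep85 -0.016 to 0.070, Cep85l -0.030 to 0.10, Cep89 -0.058 to 0.041, Cep97 -0.25 to 0.14. Cep70 had no value with the CPM filter. Depth limits the rare members: Cep70 and Cep295nl had intervals that reached beyond 1.5-fold.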
